A study of Homo sapiens with 8 samples.

Results

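The tumour suppressor p53 is a transcription factor that switches on a set of genes in response to DNA damage and other stress, and 10 of its well-known direct targets were followed here: CDKN1A, MDM2, AEN, TP53I3, SESN1, SESN2, RRM2B, FAS, ZMAT3 and GDF15. They are a list of symbols, drawn up with earlier results of these data known, and all 10 were among the 19775 genes measured. RNA came from HuCCT1, an established human cholangiocarcinoma (bile duct cancer) cell line, and was hybridised to 8 expression arrays. On 4 arrays the cells carried an shRNA against YAP1, referred to here as YAP shRNA, and on the other 4 a scrambled control shRNA. Both groups received doxycycline at 100 ng/ml, which switches the shRNA on, from 3 days before seeding. Only 1 shRNA sequence against YAP1 was used, so an effect of that sequence on other transcripts cannot be told apart from loss of YAP1. The series title speaks of overexpression of YAP, whereas its design text and labels describe shRNA. Nothing in the labels says that the 4 replicates of a group were grown as separate cultures, so the p-values here rest on a spread between arrays that may be technical only.

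In unstressed cells the ubiquitin ligase MDM2 binds p53 and drives its degradation, and MDM2 is itself a p53 target, which closes a feedback loop. Activated p53 raises CDKN1A, whose product p21 stops the cell cycle, and genes for cell death, DNA precursor supply, redox balance and restraint of mTORC1 signalling. YAP1 is a co-activator of the Hippo pathway that acts mainly through TEAD factors.

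Of the 10 p53 targets, FAS was higher and AEN lower with YAP shRNA, and the other 8 did not pass the test. A gene was called at an adjusted p below 0.05 in limma, with Benjamini-Hochberg adjustment over all 19775 genes, and fold changes are YAP shRNA minus control shRNA on the log2 scale. The 2 calls make 20% of the 10 genes, against 16.7% of all genes called in either direction. Among genes above the median level 26.6% were called, and 2 of the 10 targets lay below that level. By direction, 9.49% of all genes were called higher and 7.17% lower. Among the 10 targets 6 fold changes were above 0 and 4 below, with a median of 0.06 against 0.01 over all genes. The largest of them was 1.27-fold. The 4 arrays of one group did not overlap the 4 of the other for MDM2 and FAS, both higher, and for AEN, lower, where 24.3% of all genes did not overlap (13.4% higher, 10.9% lower). In bulk RNA a change in the share of cells expressing a gene and a change in RNA per cell cannot be told apart.

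**Figure D1:**
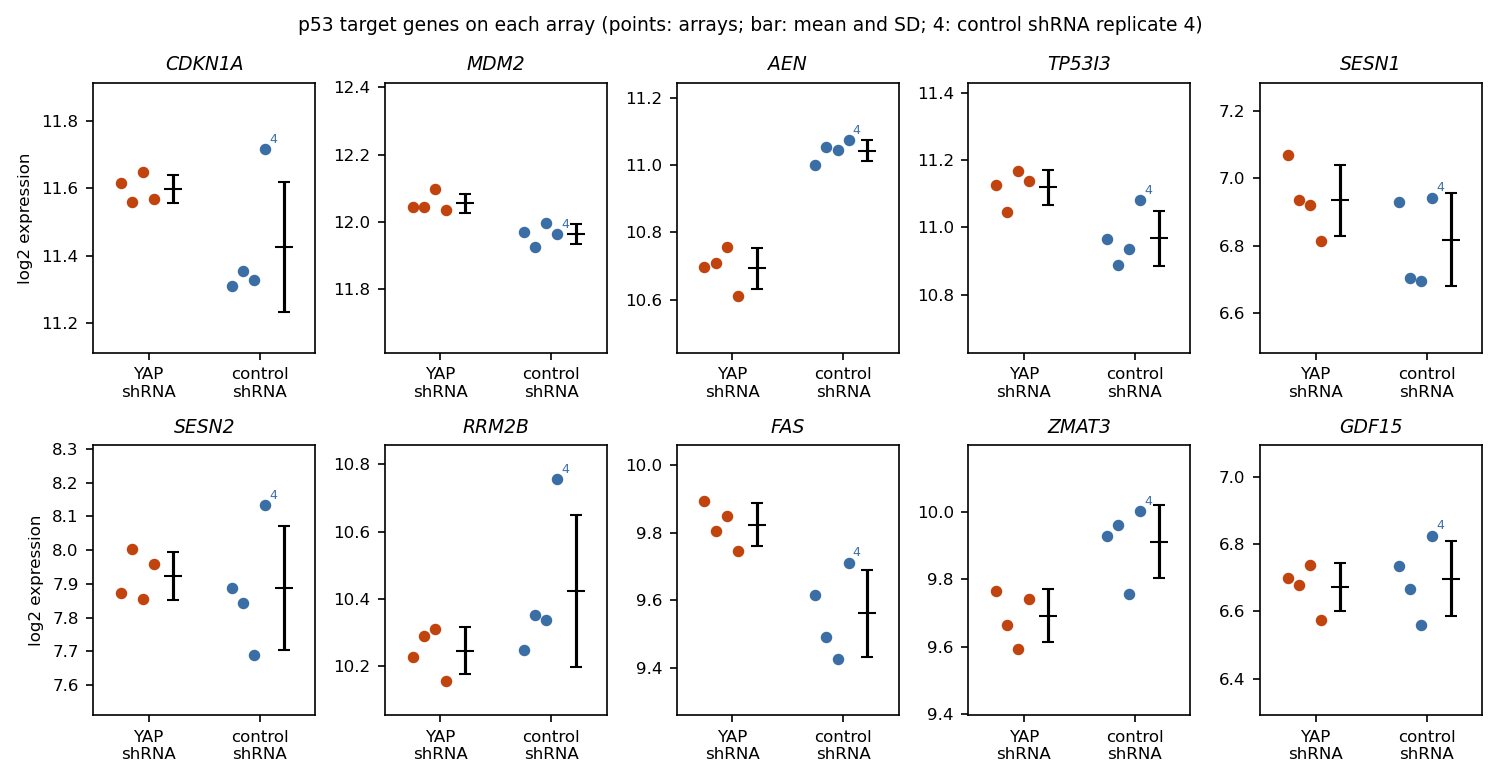
Expression of the 10 p53 target genes on each array, as log2 values of the main probe set. YAP shRNA arrays stand left of control shRNA arrays, and the bar beside the points gives the mean and SD of 4 arrays. FAS, AEN and MDM2 separate between the groups, though MDM2 was not called. Control shRNA replicate 4, labelled 4, is the highest control for 9 of the 10 genes. The share of all genes with this array highest is not given.

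YAP1 averaged 10.50 ± 0.0702 with YAP shRNA and 12.64 ± 0.086 with control shRNA (SD, n = 4 each), a fold change of -2.14 with a limma adjusted p of 6.15e-07 over all genes. Array medians lay between 6.22 and 6.25, and 0 pairs of arrays held identical values. Control shRNA replicate 4 had a mean correlation of 0.9967 with the other controls over all genes, against 0.9978 to 0.9980 for the other 3. Of the biliary epithelial markers 2 of 7 were called higher, CDH1 by 0.33 (limma adjusted p = 0.000376) and KRT19 by 0.15 (limma adjusted p = 0.0137), and 0 were called lower. Fold changes were below 0 for 4 of the 7, among them KRT7 at -0.085 (limma adjusted p = 0.129), whose groups did not overlap. These markers were bright, with a median level percentile of 98.1. Called were 16.7% of all genes and 26.6% of those above the median level. Markers of other cell types were called in 1 of 5 for fibroblasts (COL1A1, 0.52), 2 of 3 for leukocytes (CD14, 0.46, and PTPRC, -0.22) and 0 of 5 for endothelium. PTPRC was dim, at 3.74 with YAP shRNA and 3.96 with control shRNA, and its call was lost in 12 of 19 alternatives, 6 of them with 1 array other than YAP shRNA replicate 1 or control shRNA replicate 1 left out, with fold changes from -0.26 to -0.036. The mean of the COL1A1 probe sets gave 0.29 (limma adjusted p = 0.00264). The difference between the 3' and 5' GAPDH probe sets averaged 0.178 ± 0.0114 with YAP shRNA and 0.198 ± 0.0116 with control shRNA (two-sided exact permutation p = 0.0857, with 0.0286 the smallest that 4 against 4 arrays allow). For ACTB it averaged 1.02 ± 0.092 with YAP shRNA and 0.990 ± 0.0879 with control shRNA (two-sided exact permutation p = 0.686). The part of these measures in the results for p53 targets was not tested.

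p53 binds DNA as a tetramer at a site made of 2 half-sites of 10 bases, each with 3 purines, a core of 4 bases and 3 pyrimidines. The windows from 250 bases before to 50 bases after each gene's start were searched for such a site with no spacer, on both strands, in RefSeq sequence of GRCh38.p14. Of the 10 genes 9 matched the table, all except RRM2B, with 17 windows between them, since some genes have several starts. Distances are from the start whose window held the site. The limits of 2 and 3 mismatches were chosen with these windows in view. Within 2 mismatches, FAS, MDM2 and AEN held a site, in 4 of the 17 windows, against 0.649% of all 35114 windows. Within 3 mismatches, SESN1 and GDF15 held one too, giving 6 of the 17 windows, against 5.2% of all windows. MDM2 counts here with overlapping windows that hold the same sites. Since the limits were chosen with the windows in view, no enrichment can be read from these shares. The matches are shown with the 4 core bases of each half-site in capitals. Sites outside these windows, or of another form, were not searched, so a gene without a match here may still have a p53 site.
FAS: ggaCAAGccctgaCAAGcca
AEN: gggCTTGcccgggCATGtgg
MDM2, distal site: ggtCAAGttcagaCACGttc
MDM2, proximal site: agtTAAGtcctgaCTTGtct
SESN1: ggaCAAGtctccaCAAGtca
GDF15: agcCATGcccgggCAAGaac
The FAS site lay at chr10:88991309-88991328 on the + strand, 122 bases before the start, with 2 mismatches. The AEN site lay at chr15:88621306-88621325 on the + strand, 34 bases before the start, with 2 mismatches. The distal MDM2 site lay at chr12:68808923-68808942 on the + strand, 94 bases before the start, with 2 mismatches, and the proximal one at chr12:68808961-68808980, 56 bases before it, with 3. The SESN1 site lay at chr6:109009018-109009037 on the - strand, 49 bases before the start, and the GDF15 site at chr19:18386186-18386205 on the + strand, 28 bases after it, each with 3 mismatches. FAS and AEN, the called genes, moved in opposite directions and both held such a match. A match describes letters in a window and shows no binding.

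The 250 bases before a start whose window held a site are given for FAS, AEN and MDM2, with the sites in capitals. These were the 3 genes whose groups did not overlap. FAS and MDM2 also have starts upstream of the ones shown, and the windows of those upstream starts held 0 sites. All 3 are on the + strand of GRCh38.p14.
FAS, chr10:88991181-88991430: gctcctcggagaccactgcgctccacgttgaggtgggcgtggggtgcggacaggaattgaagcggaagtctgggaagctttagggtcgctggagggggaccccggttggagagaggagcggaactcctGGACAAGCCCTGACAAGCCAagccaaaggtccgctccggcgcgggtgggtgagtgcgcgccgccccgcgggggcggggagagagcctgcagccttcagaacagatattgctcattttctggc
AEN, chr15:88621090-88621339: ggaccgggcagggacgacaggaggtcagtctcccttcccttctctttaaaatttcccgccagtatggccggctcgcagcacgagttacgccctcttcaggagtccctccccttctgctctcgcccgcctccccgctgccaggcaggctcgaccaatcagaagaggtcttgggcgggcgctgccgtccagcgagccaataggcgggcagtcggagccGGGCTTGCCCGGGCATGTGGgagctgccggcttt
MDM2, chr12:68808767-68809016: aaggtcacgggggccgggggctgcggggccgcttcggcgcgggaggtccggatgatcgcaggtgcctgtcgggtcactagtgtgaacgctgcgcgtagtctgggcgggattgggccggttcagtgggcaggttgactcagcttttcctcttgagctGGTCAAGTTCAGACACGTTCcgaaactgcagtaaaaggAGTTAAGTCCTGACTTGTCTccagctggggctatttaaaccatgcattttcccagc
The same windows were searched on both strands for the TEAD motif GGAATG, the AP-1 motif TGACTCA and the ATF4 composite motif TGATGNAA. The TEAD motif stood in windows of TP53I3, SESN1 and GDF15, 3 of the 17 windows, and in 14.0% of all windows. Neither called gene had it in these windows, which says only that those letters are not there. The AP-1 motif stood in MDM2 alone among the 9 genes, 118 bases before the start and outside both p53 sites. That made 2 of the 17 windows, against 4.95% of all windows. The ATF4 composite motif stood in 0 of the 9 genes and in 3.62% of all windows.

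CDKN1A encodes p21, the inhibitor of cyclin-dependent kinases through which p53 halts the cycle. CDKN1A values were 11.62, 11.56, 11.65 and 11.57 with YAP shRNA, against 11.31, 11.35, 11.33 and 11.71 with control shRNA. The 4 YAP shRNA arrays lay within 0.0881 of each other, 3 controls lay below them all, and control shRNA replicate 4 lay above them all. The fold change was 0.17 (SE 0.0889, 95% interval -0.03 to 0.37) and did not pass (limma adjusted p = 0.25). Without control shRNA replicate 4 it was 0.27 and passed (limma adjusted p = 0.00261). CDKN1A has 1 probe set here, so no second measurement of it was at hand.

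MDM2 encodes the ligase that degrades p53. Its values were 12.04, 12.04, 12.10 and 12.04 with YAP shRNA, against 11.97, 11.93, 12.00 and 11.96 with control shRNA. Every YAP shRNA array lay above every control, by a small amount: the fold change was 0.09 (SE 0.0358, 95% interval 0.01 to 0.17), which did not pass (limma adjusted p = 0.133). The interval is for this gene alone, before adjustment. MDM2 was measured by 10 probe sets, of which 8 had a fold change above 0 and 2 below, between -0.10 and 0.23, and 0 of the 10 passed over all probe sets, where 13.6% were called. The probe sets span bright and very dim values, and the brightest is the one reported.

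FAS encodes the cell surface death receptor that, bound by its ligand, recruits FADD and caspase-8. FAS values were 9.89, 9.81, 9.85 and 9.75 with YAP shRNA, against 9.62, 9.49, 9.43 and 9.71 with control shRNA. All YAP shRNA arrays lay above all controls, with YAP shRNA replicate 4 and control shRNA replicate 4 closest. FAS rose by 0.26, or 1.20-fold (SE 0.0677, 95% interval 0.11 to 0.42, limma adjusted p = 0.0303). All 5 FAS probe sets had fold changes above 0, and 4 of them passed over all probe sets, with fold changes of 0.26, 0.35, 0.35 and 0.30. The other one had 0.24 (limma adjusted p = 0.332). The 4 that passed carry the suffix s_at or x_at, which marks probes that can match more than 1 transcript, and the one that did not pass is the only one without it. The call on the main probe set was lost without YAP shRNA replicate 1 (0.24, limma adjusted p = 0.082), replicate 2 (0.27, 0.069) or replicate 3 (0.25, 0.0809), and without control shRNA replicate 2 (0.24, 0.0806) or replicate 3 (0.22, 0.0689), with the fold change and limma adjusted p in brackets. Those 5 fits called 12.4% to 13.5% of all genes, against 16.7% with all arrays.

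AEN encodes a nuclease that enhances apoptosis and digests DNA and RNA. AEN values were 10.70, 10.71, 10.76 and 10.61 with YAP shRNA, against 11.00, 11.05, 11.04 and 11.07 with control shRNA. The highest YAP shRNA array lay clearly below the lowest control, and neither group had an array far from its others. AEN fell by 0.35, or 1.27-fold (SE 0.0427, 95% interval -0.45 to -0.25, limma adjusted p = 0.000888). The call held in all 20 alternatives that measured AEN, with limma adjusted p between 3.63e-05 and 0.0163. AEN has a single probe set, with the suffix s_at, so the direction rests on 1 measurement per array.

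ZMAT3 encodes a zinc finger protein that binds RNA and acts in growth restraint and splicing. ZMAT3 values were 9.77, 9.67, 9.59 and 9.74 with YAP shRNA, against 9.93, 9.96, 9.76 and 10.00 with control shRNA. The groups overlapped by 1 pair, since YAP shRNA replicate 1 lay just above control shRNA replicate 3. The fold change was -0.22 (SE 0.0645, 95% interval -0.37 to -0.07) and missed the threshold narrowly (limma adjusted p = 0.0508). Without control shRNA replicate 3 it was -0.27 and passed (limma adjusted p = 0.0171). All 5 ZMAT3 probe sets had fold changes below 0, and 2 of them passed over all probe sets, at -0.32 (limma adjusted p = 0.0106) and -0.29 (limma adjusted p = 0.0365).

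**Figure D2:**
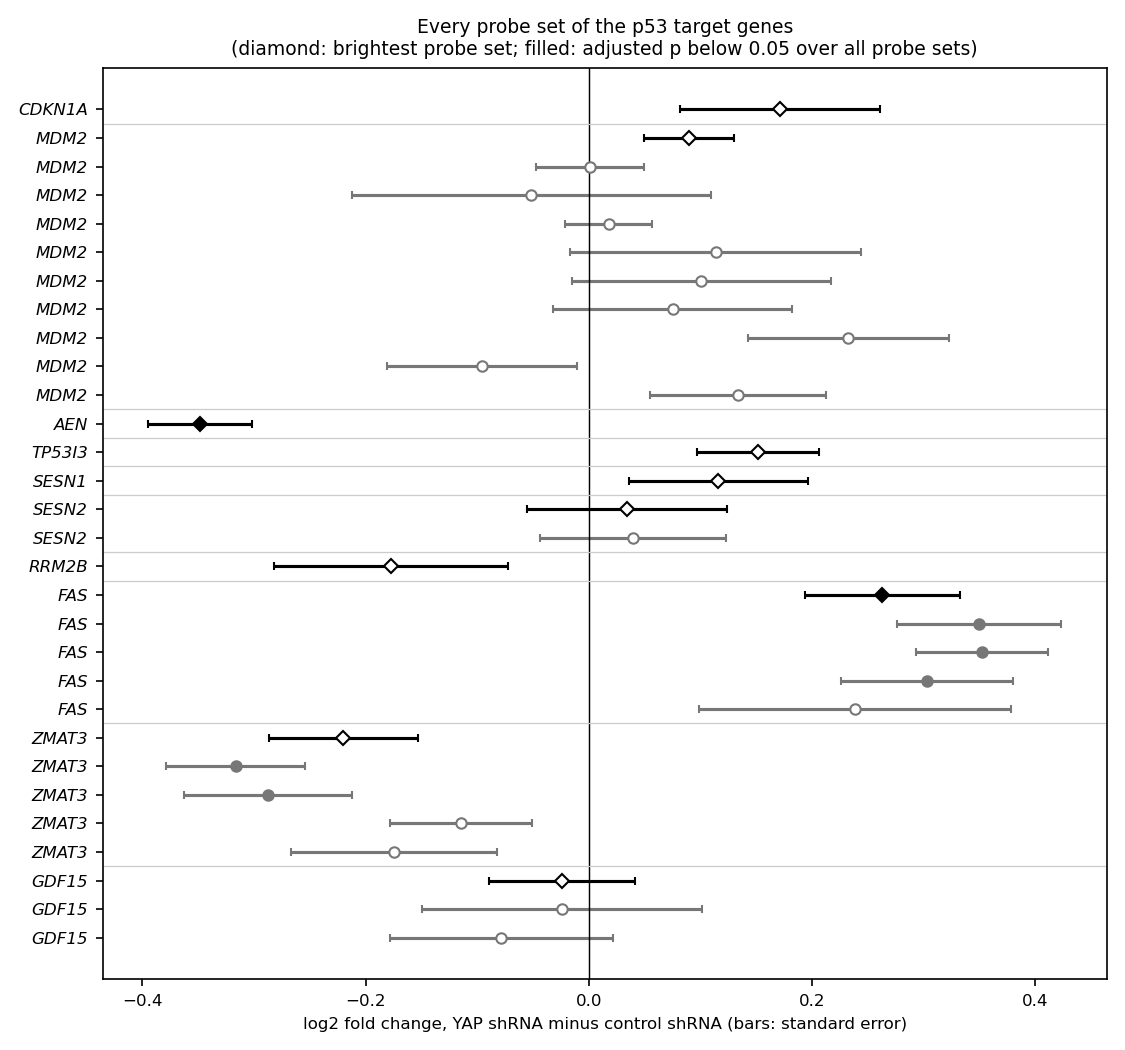
Log2 fold change (YAP shRNA minus control shRNA) of all 30 probe sets of the 10 genes, with standard errors. Diamonds mark the main probe set of each gene and filled symbols pass over all probe sets. The 5 FAS probe sets lie right of 0 and the 5 ZMAT3 probe sets left of it, while those of MDM2 lie on both sides.

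TP53I3 (PIG3) encodes a quinone oxidoreductase linked to reactive oxygen species. TP53I3 values were 11.13, 11.05, 11.17 and 11.14 with YAP shRNA, against 10.97, 10.89, 10.94 and 11.08 with control shRNA. All but YAP shRNA replicate 2, which lay just below control shRNA replicate 4, were above every control. The fold change of 0.15 (SE 0.0516, 95% interval 0.03 to 0.27) did not pass (limma adjusted p = 0.0832), and without control shRNA replicate 4 it was 0.19 and passed (limma adjusted p = 0.0187).

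SESN1 and SESN2 encode sestrins, which sense amino acids and restrain mTORC1. SESN1 values were 7.07, 6.94, 6.92 and 6.81 with YAP shRNA, against 6.93, 6.70, 6.70 and 6.94 with control shRNA. SESN2 values were 7.87, 8.003, 7.85 and 7.96 with YAP shRNA, against 7.89, 7.84, 7.69 and 8.13 with control shRNA. The groups overlapped for both genes. The fold changes were 0.12 for SESN1 (95% interval -0.06 to 0.30, limma adjusted p = 0.391) and 0.03 for SESN2 (95% interval -0.17 to 0.24, limma adjusted p = 0.851) and both intervals reach from below 0 to above it.

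RRM2B encodes the p53-inducible small subunit of ribonucleotide reductase, which supplies deoxynucleotides for DNA repair. RRM2B values were 10.23, 10.29, 10.31 and 10.16 with YAP shRNA, against 10.25, 10.35, 10.34 and 10.76 with control shRNA. Control shRNA replicate 4 stood alone, and the other 7 arrays lay close together. The fold change was -0.18 (SE 0.105, 95% interval -0.42 to 0.06, limma adjusted p = 0.316), and without that array it was -0.07.

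GDF15 encodes a secreted stress cytokine of the TGF-beta superfamily. GDF15 values were 6.70, 6.68, 6.74 and 6.57 with YAP shRNA, against 6.73, 6.67, 6.56 and 6.82 with control shRNA, with full overlap. The fold change was -0.02 (SE 0.0636, 95% interval -0.17 to 0.12, limma adjusted p = 0.854), and all 3 GDF15 probe sets had fold changes below 0 with 0 called.

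Control shRNA replicate 4 was the highest control for 9 of the 10 genes, all but MDM2. The share of all genes with this array highest is not given here, so the count cannot be read as particular to p53 targets. The array also had the lowest mean correlation with its group over all genes (0.9967). The distance of control shRNA replicate 4 above the mean of the other 3 controls was 0.44 for RRM2B, 0.38 for CDKN1A, 0.33 for SESN2 and 0.20 for FAS, and 0.04 for AEN. Without this array 3 of the 10 genes were called higher and 1 lower, in a comparison that called 19.6% of all genes, 11.4% higher and 8.25% lower. FAS, CDKN1A and TP53I3 were the 3 called higher.

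**Figure D3:**
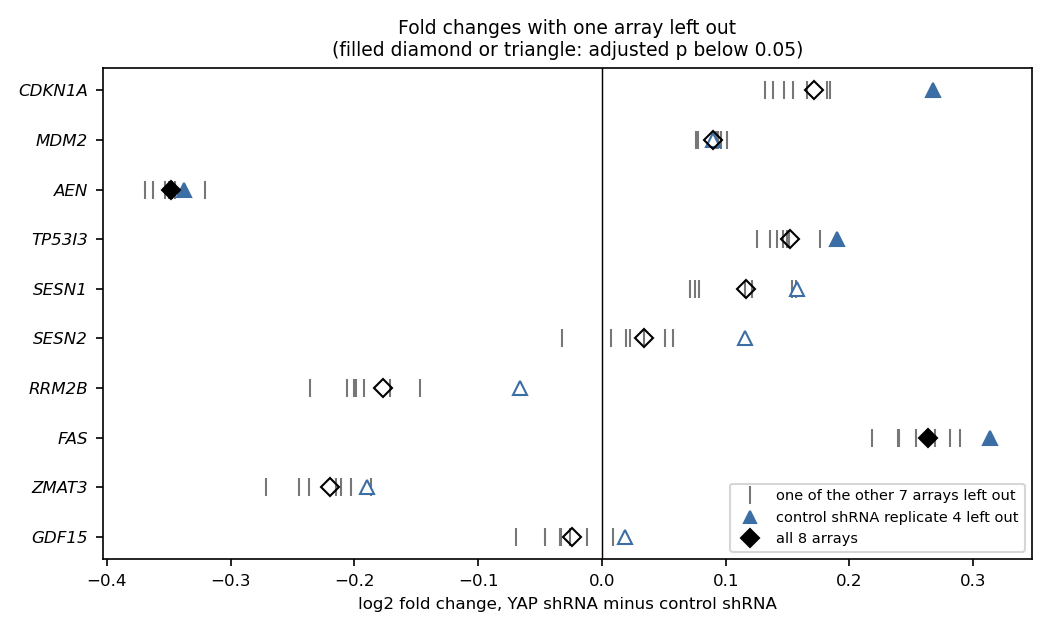
Log2 fold change (YAP shRNA minus control shRNA) of each gene over all 8 arrays (diamonds) and with 1 array left out (ticks, and triangles for control shRNA replicate 4). Filled symbols pass the test. Leaving out control shRNA replicate 4 moved CDKN1A to 0.27 and RRM2B to -0.07, and AEN was at -0.34.

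Other direct p53 targets were taken from 3 lists, of which 33 of 37 genes were measured. Here 8 were called higher and 5 lower, or 39.4%, with a median fold change of 0.09. For comparison, 26.6% of genes above the median level were called. The lists were chosen with earlier results of these data known, and calls in both directions stood in each.

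Of 10 targets with roles in apoptosis 4 were called higher and 1 lower, or 50%. Called were 16.7% of all genes and 26.6% of those above the median level. TNFRSF10C, a decoy receptor for the death ligand TRAIL, averaged 7.04 ± 0.0824 with YAP shRNA and 6.19 ± 0.116 with control shRNA (SD, n = 4 each) and rose by 0.85 (limma adjusted p = 0.000118). The mean of its probe sets gave 0.44 (limma adjusted p = 0.00303), and the brightest TNFRSF10C probe set without the suffix s_at or x_at 0.15 (limma adjusted p = 0.14). TNFRSF10A, a TRAIL death receptor, averaged 11.78 ± 0.0261 with YAP shRNA and 11.45 ± 0.062 with control shRNA and rose by 0.33 (limma adjusted p = 0.0011). TNFRSF10B, another TRAIL death receptor, named after its values were seen, averaged 13.19 ± 0.0233 with YAP shRNA and 13.03 ± 0.0141 with control shRNA and rose by 0.17 (limma adjusted p = 0.00969). All 3 lie on chromosome 8, where 151 of 716 genes were called higher and 25 lower, and RRM2B, also there, was not called. The part of that chromosome in these calls was not tested. SPATA18, which acts in mitochondrial quality control, rose by 0.63 (limma adjusted p = 0.00895) but was dim, at 4.90 with YAP shRNA and 4.27 with control shRNA, and the mean of its probe sets gave 0.41 (limma adjusted p = 0.0177). PMAIP1 (NOXA), which promotes mitochondrial apoptosis, averaged 10.85 ± 0.0313 with YAP shRNA and 11.14 ± 0.12 with control shRNA and fell by 0.29 (limma adjusted p = 0.0131).

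Targets in DNA repair and metabolism had 3 calls in each direction of 12, or 50%, against the same 16.7% and 26.6%. DDB2, which recognises ultraviolet damage in DNA, had values of 10.05, 10.01, 10.07 and 10.12 with YAP shRNA, against 10.56, 10.47, 10.52 and 10.34 with control shRNA. DDB2 fell by 0.41, or 1.33-fold (limma adjusted p = 0.00138), with no overlap, and its call held in every leave-one-out fit. PANK1, which makes coenzyme A, averaged 9.85 ± 0.0656 with YAP shRNA and 9.48 ± 0.0657 with control shRNA and rose by 0.37 (limma adjusted p = 0.00156). CMBL, a hydrolase, rose by 0.32 (limma adjusted p = 0.00872), but the mean of its probe sets gave 0.13 (limma adjusted p = 0.0995). DRAM1, which promotes autophagy, rose by 0.23 (limma adjusted p = 0.0452). The translesion polymerase POLK fell by 0.27 (limma adjusted p = 0.0229), but the mean of its probe sets gave -0.16 (limma adjusted p = 0.0622). TIGAR, which lowers glycolytic flux, fell by 0.17 (limma adjusted p = 0.0372).

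Targets of arrest and feedback had 1 call in each direction of 11, a share of 18.2%. Against this stand 16.7% of all genes and 26.6% of those above the median level. PML, the scaffold of nuclear bodies, rose by 0.28 (limma adjusted p = 0.0423) with overlapping groups, and GADD45A, a stress-induced growth arrest gene, fell by 0.16 (limma adjusted p = 0.0284). The brightest PML probe set without the suffix s_at or x_at gave -0.01 (limma adjusted p = 0.931). With single arrays left out, the calls on PML, GADD45A, DRAM1 and TIGAR were each lost in 6 of 8 fits, with limma adjusted p up to 0.118. They held for PML without YAP shRNA replicate 2 or control shRNA replicate 1, for GADD45A and TIGAR without control shRNA replicate 1 or 4, and for DRAM1 without YAP shRNA replicate 3 or control shRNA replicate 4. POLK was lost without YAP shRNA replicate 1 or 4, with limma adjusted p up to 0.0676.

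**Figure D4:**
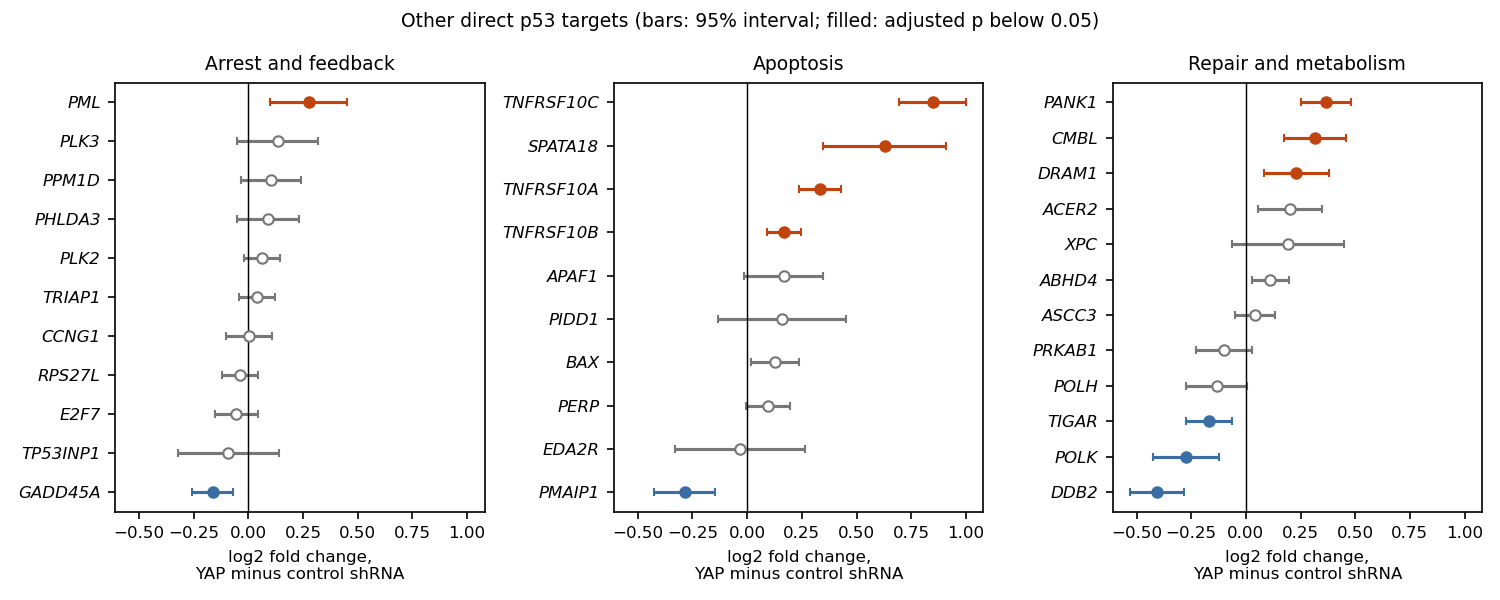
Log2 fold change (YAP shRNA minus control shRNA) of 33 other direct p53 targets in 3 groups by role, with 95% intervals. Filled points pass the test, right of 0 where higher and left where lower. DDB2 at -0.41 is the farthest below 0 and TNFRSF10C at 0.85 the farthest above it.

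Of 18 measured p53 family members and regulators 1 was called higher and 1 lower, or 11.1%, against 16.7% of all genes. CHEK2, the checkpoint kinase that phosphorylates p53, averaged 10.06 ± 0.0454 with YAP shRNA and 9.81 ± 0.0478 with control shRNA and rose by 0.25 (limma adjusted p = 0.00395). PPP1R13L, which encodes the p53 inhibitor iASPP, fell by 0.19 (limma adjusted p = 0.0216), a call that held without YAP shRNA replicate 1 or control shRNA replicate 2 or 4 and was lost in the other 5 of 8 leave-one-out fits (limma adjusted p up to 0.0651). MDM4, the partner of MDM2 in holding p53 in check, had a fold change of -0.01 (limma adjusted p = 0.914), and the p53 relative TP73 -0.04 (limma adjusted p = 0.868).

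Among 20 partners of these gene products 1 was called higher and 2 lower, or 15%, against 16.7% of all genes. CASP10, an initiator caspase that FAS can recruit, averaged 9.09 ± 0.0726 with YAP shRNA and 8.73 ± 0.126 with control shRNA and rose by 0.37 (limma adjusted p = 0.0071), or 0.24 as the mean of its probe sets (limma adjusted p = 0.0169). CASP8, the main initiator below FAS, had a fold change of -0.09 (limma adjusted p = 0.466), and CFLAR, which blocks it, -0.04 (limma adjusted p = 0.608). The brightest CFLAR probe set without the suffix s_at or x_at gave 0.43 (limma adjusted p = 0.0131), so its probe sets disagree. CDK6, a cyclin D kinase, averaged 13.01 ± 0.0438 with YAP shRNA and 13.49 ± 0.0236 with control shRNA and fell by 0.48 (limma adjusted p = 0.000109). SEH1L, a subunit of the complex through which sestrins reach mTORC1, fell by 0.13 (limma adjusted p = 0.0415), a call that held without control shRNA replicate 1 and was lost in the other 7 of 8 leave-one-out fits (limma adjusted p up to 0.109). CCND1 was at 0.04 (limma adjusted p = 0.533) and SESN3 at 0.18 (limma adjusted p = 0.282). RRM1, the large subunit of the enzyme that RRM2B joins, was at -0.01 (limma adjusted p = 0.854) and RRM2, the S-phase small subunit, at -0.11 (limma adjusted p = 0.0547).

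Genes that p53 lowers through p21 and the DREAM complex, most of them needed for mitosis, had fold changes below 0 in 15 of 16, with a median of -0.10 against 0.01 over all genes. Over all genes 9115 of 19775 fold changes were below 0. Of the 16 genes 3 were called lower and 0 higher, or 18.8%, against 16.7% of all genes. CCNB1, the mitotic cyclin, averaged 13.21 ± 0.0141 with YAP shRNA and 13.37 ± 0.0144 with control shRNA and fell by 0.16 (limma adjusted p = 0.0116). The kinesin KIF23 fell by 0.26 (limma adjusted p = 0.0317) and the mitotic transcription factor FOXM1 by 0.18 (limma adjusted p = 0.0357), and each of these calls was lost in 6 of 8 leave-one-out fits, with limma adjusted p up to 0.0988. They held without control shRNA replicate 4 and without YAP shRNA replicate 2 for KIF23 or replicate 1 for FOXM1. Without control shRNA replicate 4, 8 of the 16 were called lower and 0 higher, in a fit that called 8.25% of all genes lower, against 7.17% with all arrays. The all-gene share is not a like one, since these genes were bright, with a median level percentile of 91.2. With all arrays, 26.6% of genes above the median level were called in either direction, against 16.7% of all genes. Whether the 16 genes moved independently of each other was not tested.

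ATF4 drives the amino acid stress response and can also raise SESN2 and GDF15. Of ATF4 and its targets, 14 genes, 1 was called higher and 2 lower, or 21.4%. Against this stand 16.7% of all genes and 26.6% of those above the median level. DDIT4, an mTORC1 inhibitor, averaged 13.36 ± 0.0188 with YAP shRNA and 12.99 ± 0.0243 with control shRNA and rose by 0.38 (limma adjusted p = 0.000204). DDIT3 (CHOP) fell by 0.20 (limma adjusted p = 0.0207) and the transporter subunit SLC3A2 by 0.15 (limma adjusted p = 0.048). The DDIT3 call was lost without YAP shRNA replicate 1, 2 or 4 (limma adjusted p up to 0.0649), and the SLC3A2 call held only without control shRNA replicate 3 among the 8 leave-one-out fits (limma adjusted p up to 0.116). ATF4 itself was at -0.07 (limma adjusted p = 0.18).

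The genes whose pattern over the 8 arrays lay closest to that of each called gene were found by the root mean square difference of log2 values, each gene centred on its own mean. For AEN these were ARPC5, an actin nucleation subunit (0.033), and TTC9C (0.0332), with fold changes of -0.40 and -0.37. For FAS they were the ubiquitin ligase WWP2 and the ephrin ligand EFNB1 (0.0334 for each), with fold changes of 0.26 and 0.27. This likeness is a description over 8 arrays.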

How the data were processed

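The authors' deposited table held log2 values, 1 per probe set and array, for 54675 probe sets. The log base was inferred from the range of 1.72 to 14.9, and how it was background-corrected, summarised and normalized is not given in the sources used here. Per the labels' protocols, RNA was amplified with a NuGEN kit and carried a biotin label. On arrays their number limits the precision.

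GEO's platform annotation gave 1 symbol to 41097 probe sets, of which 41043 matched RefSeq by Entrez ID. For each of 19775 genes the brightest such probe set, by its mean of 8 arrays, was used. Fits used limma 3.58.1 in R 4.3.3 with no covariate, Benjamini-Hochberg adjustment and a threshold of 0.05. The fit was tested on simulated data with 50 genes changed at each size. It recovered 14% of changes of 0.2 on the log2 scale, 36% of 0.3, 70% of 0.5 and 98% of 1. It also called 11 unchanged genes. With 50 of 19775 genes changed at each size, the changed share was far below the 16.7% of genes called in the data. The adjustment depends on that share, so these rates do not measure the recovery of the reported fit. A gene that did not pass may still have changed by 0.2 or 0.3.

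The members and gene lists were chosen with earlier results of these data known. Named were the 10 members, YAP1, up to 3 genes called in each direction per list, a set of partner genes whatever their values, and the 2 genes closest in pattern to each called member. The replicate numbers were not used to pair the samples in the reported fit. Alternatives changed the normalization, level filter, probe set choice, variance model, threshold, block and left-out array. Figures used matplotlib 3.10.9.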

Additional observations from a re-analysis of the deposited data

Results flagged for a closer look

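In each group of 4 arrays, the highest or lowest array was set apart when its gap to the next array relative to the group's range exceeded Dixon's 95% critical value. Of 108 groups tested, over 52 genes and 2 RNA quality measures, 10 were set apart, where chance gives about 5.4, and 3 of the 10 were in control shRNA replicate 4.

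CDKN1A was 11.71 in control shRNA replicate 4, against 11.31 to 11.35 in the other controls. DDIT3 was 9.09 in the same array, against 8.96 to 8.98, and SESN3 was 5.01 there, against 5.33 to 5.37. YAP shRNA replicate 3 had MDM2 at 12.10, with the other 3 YAP shRNA arrays at 12.04, and DDIT3 at 8.88, against 8.76 to 8.77. YAP shRNA replicate 2 had PML at 9.41, against 9.55 to 9.58, and SPATA18 at 5.07, against 4.83 to 4.86. YAP1, the target of the shRNA, was 12.77 in control shRNA replicate 3, against 12.59 to 12.61 in the other controls. The difference between 3' and 5' probe sets was 1.16 for ACTB in YAP shRNA replicate 1, against 0.964 to 0.988, and 0.181 for GAPDH in control shRNA replicate 3, against 0.201 to 0.205.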

How the results depend on the processing

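Over 21 alternative settings, 203 fold changes of the 10 genes were recomputed, of which 174 kept their direction and side of the threshold, 8 (all FAS) lost the call, 17 gained one and 4 changed sign. The sign changes were of GDF15, to 0.025 with array weights and, with 1 array left out, a range of -0.069 to 0.018 (above 0 without YAP shRNA replicate 4 or control shRNA replicate 4), and of SESN2, with a range of -0.032 to 0.12 (below 0 without control shRNA replicate 3). The cause was not tested. The number called higher, 1 in the reported fit, was 3 without genes below the median level, with an intensity trend and with array weights, 2 at an adjusted p below 0.10, and 0 at an adjusted p below 0.01 or without probe sets of the suffix s_at or x_at, where 5 of the 10 genes were measured. The number called lower, 1 in the reported fit, was 2 with arrays centred on their medians, without genes below the 25th percentile or the median level, with probe sets averaged per gene, with an intensity trend and at an adjusted p below 0.10, and 0 without the suffixed probe sets. In each case of 2, the added gene was ZMAT3. Over these settings the share of all genes called ran from 9.03% at an adjusted p below 0.01 to 39.3% without genes below the median level. Of the other direct targets, called 8 higher and 5 lower, the suffixed probe sets' removal left 5 higher and 3 lower, and an adjusted p below 0.01 left 1 lower. Leaving out 1 array at a time gave 0 to 3 members higher, 1 to 2 lower, and 6 to 9 other targets higher, 2 to 5 lower.

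Deviations of arrays with the same replicate number had correlations of -0.17, -0.06, 0.00 and -0.21, against -0.24 to 0.22 for pairs with different numbers. The numbers thus showed no sign of pairing the samples, which does not exclude a shared batch. With the replicate block 0 members were called higher and 2 lower, with FAS at an adjusted p of 0.0916, and 2 other targets were called lower. The block called 1222 genes higher and 884 lower of 19775, against 1876 and 1418 without it, and an adjusted p below 0.01 left 1022 and 763.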
